A study of Mus musculus with 15 samples.

Results

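The tumour necrosis factor (TNF) superfamily genes described here are the 6 ligands Tnf, Ltb, Tnfsf9, Tnfsf10, Tnfsf12 and Tnfsf13b and the 3 receptors Tnfrsf1a, Tnfrsf1b and Fas. They were followed in mouse macrophages that lacked the transcription factor gene Junb or were wild type, with and without a bacterial stimulus. The 9 genes were chosen by name, and their probes were found by matching the RefSeq accessions of an Agilent single-colour array to gene symbols. They are 9 of the 14192 genes tested. All 9 were well above background on each of the 15 arrays, so none entered through 1 group alone.

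TNF superfamily ligands are trimeric proteins, mostly made as membrane proteins that can be cut loose, and their receptors signal by recruiting adaptor proteins to the inner side of the membrane. Receptors with a death domain, such as Tnfrsf1a and Fas, can start apoptosis or necroptosis, whereas others act mainly through TRAF adaptors on NF-kB and MAP kinases. Macrophages are a leading source of TNF after contact with lipopolysaccharide (LPS), a cell wall component of Gram-negative bacteria that is sensed by Toll-like receptor 4. Junb encodes a subunit of AP-1, a dimeric transcription factor.

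Bone marrow-derived macrophages were grown in macrophage colony-stimulating factor. Knockout macrophages had the genotype Junb-fl/fl Lyz2-Cre+/+, in which Cre recombinase sits in both copies of the myeloid gene Lyz2 and removes the floxed Junb, on a C57BL/6 background, and wild type macrophages were C57BL/6. LPS was given at 100 ng/ml for 4 h. There were 3 arrays of LPS-treated knockout cells (replicates 2 to 4), 4 of LPS-treated wild type cells, 4 of untreated knockout cells and 4 of untreated wild type cells. The replicates were separate wells, and nothing says that they came from separate animals, so p-values measure the spread between wells, which may be technical.

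The signals of Junb were 0.645 to 3.71 with LPS and -0.395 to 4.15 untreated in knockout cells, well above background on 0 of 7 arrays, against 4323 to 9574 and 1291 to 2068 in wild type cells. The genotypes differed in more than Junb. Lyz2 signals were 1829 to 3793 with LPS and 869 to 2424 untreated in knockout cells, against 345888 to 443766 and 391771 to 448164 in wild type cells. Xist was well above background on the wild type arrays only and the Y-linked gene Ddx3y on the knockout arrays only, so the donors also differed in sex. The knockout cells were hybridised on 1 slide and the wild type cells on another, so slide, sex and genotype cannot be told apart, and on each slide the untreated arrays lay in row 1 and the LPS arrays in row 2, so slide row and LPS cannot be told apart either. Of the 8 macrophage markers, 7 had a probe, and these 7 were well above background on every array, with a summed level of 1243 to 1638 with LPS and 605 to 1435 untreated in knockout cells, against 1074 to 1608 and 926 to 1097 in wild type cells (multiples of each array's 75th percentile signal). One of the brightest of them, Csf1r, ran from 1.56 to 9.12 in log2 in untreated knockout cells, against 8.24 to 9.10 over the other groups, so the wide range of that sum is not a shift of all markers. Untreated knockout replicate 3, untreated wild type replicate 1 and LPS-treated wild type replicate 4 deviated most from their groups, with gene-wise SDs around the group means of 0.638, 0.540 and 0.526 on the log2 scale, against 0.231 to 0.434 on the other arrays.

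Values below are log2 of the processed signal over the array's 75th percentile, so 0 stands for a signal at the 75th percentile, and a difference of 1 is a doubling. Differences are log2 fold changes with their standard error (SE) from a limma model over all 15 arrays, and a gene was called when its Benjamini-Hochberg adjusted p over all genes tested was below 0.05. Levels of different genes are not set against each other, since probes differ in brightness.

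LPS raised 6 of the 9 genes in both genotypes, namely the ligands Tnf, Tnfsf9 and Tnfsf10 and all 3 receptors. It lowered Tnfsf12 and left Ltb and Tnfsf13b without a call. In knockout cells the rises ran from 0.95 to 6.21 and in wild type cells from 1.15 to 4.91. The 7 of 9 genes called in either genotype stand against a background of 59.9% of all genes called in knockout cells (32.5% up, 27.5% down) and 60.5% in wild type cells (34.9% up, 25.5% down), and read against these shares the number of calls is no result about the 9 genes. In each genotype the LPS and untreated arrays of the 7 genes did not overlap, as held for 65.1% of genes with a value on every array in knockout cells and 52.6% in wild type cells. The calls at an absolute log2 of 2 or more made up 10.9% of all genes in knockout cells and 11.7% in wild type cells, and Tnf, Tnfsf9 and Tnfsf10 were among them in both genotypes, Tnfrsf1b and Fas in knockout cells. The median over the 9 genes was 2.26 in knockout cells and 1.57 in wild type cells, beside medians of 0.19 and 0.14 over all genes. In bulk RNA, a change in the number of cells that express a gene and a change in the RNA per cell cannot be told apart.

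**Figure D1:**
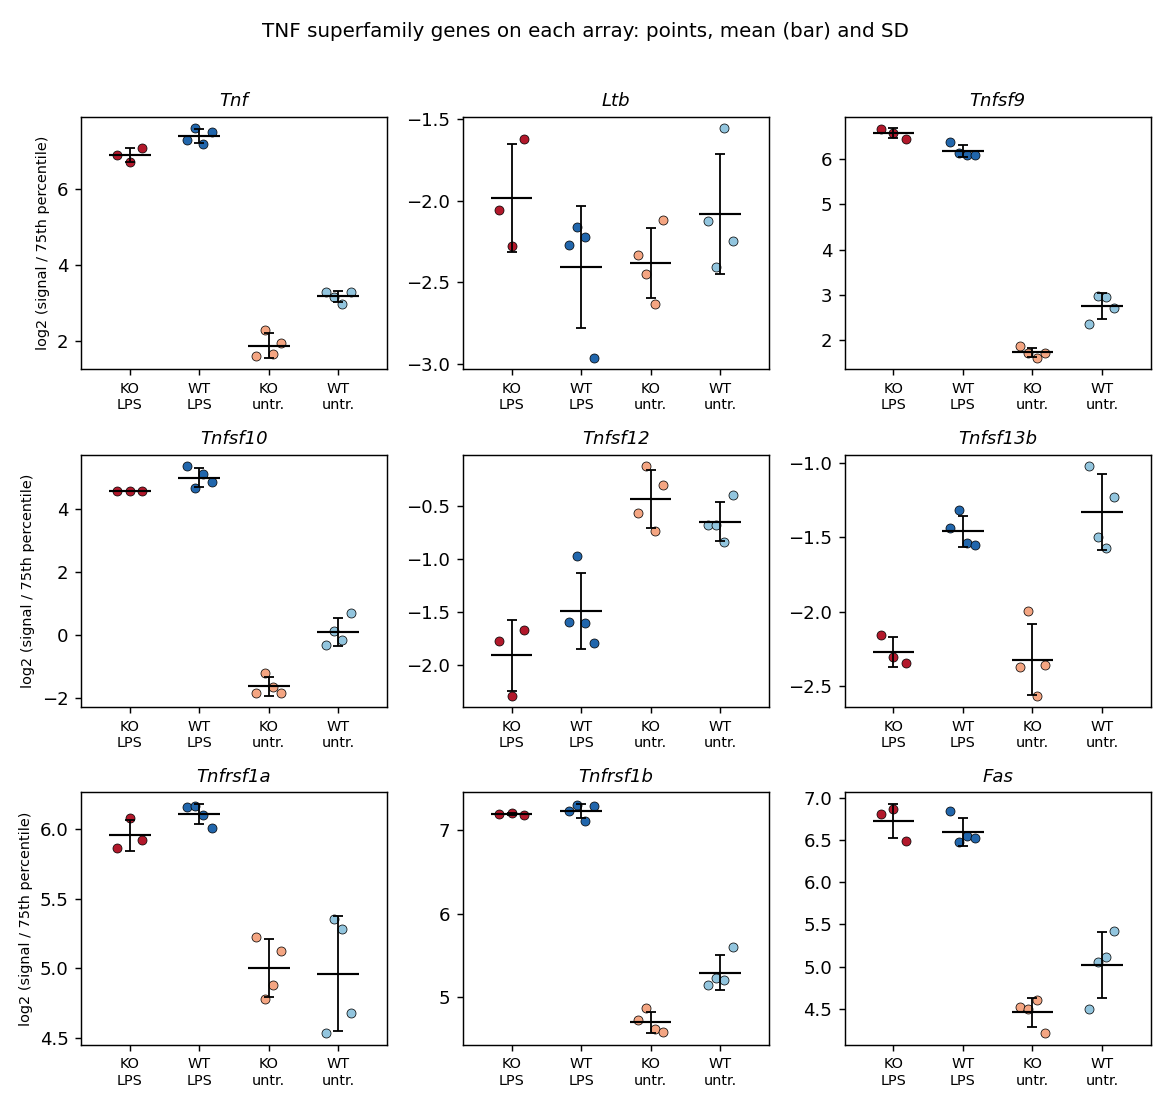
Log2 signal over the array's 75th percentile (y axis, separate scale per gene) of the 9 genes on each array, by group. Points are arrays, long bars the group mean and whiskers the SD. In Tnf, Tnfsf9, Tnfsf10, Tnfrsf1a, Tnfrsf1b and Fas every LPS array sits above every untreated array of its genotype, and in Tnfsf12 every LPS array sits below.

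Tnf encodes the founding ligand of the family, which binds both TNF receptors. It measured 6.87, 6.69 and 7.05 on the LPS-treated knockout arrays and 1.59, 2.29, 1.65 and 1.94 on the untreated knockout arrays. Wild type cells measured 7.28, 7.59, 7.18 and 7.48 with LPS and 3.28, 3.16, 2.95 and 3.27 untreated. The 4 groups did not overlap, and their order from high to low was LPS-treated wild type, LPS-treated knockout, untreated wild type and untreated knockout. The LPS response was 5.004 ± 0.170 in knockout cells (32.1-fold, adjusted p = 1.8e-11) and 4.22 ± 0.16 in wild type cells (18.6-fold, adjusted p = 3.1e-11).

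Tnfsf9 encodes the ligand of the co-stimulatory T cell receptor Tnfrsf9. It measured 6.68, 6.59 and 6.45 on the LPS-treated and 1.86, 1.72, 1.61 and 1.72 on the untreated knockout arrays. Wild type cells measured 6.38, 6.15, 6.10 and 6.10 with LPS and 2.35, 2.98, 2.96 and 2.71 untreated. Here LPS-treated knockout cells stood highest and untreated knockout cells lowest, with the wild type groups between them and no overlap between any groups. LPS raised it by 4.85 ± 0.15 in knockout cells (28.8-fold) and by 3.43 ± 0.13 in wild type cells (10.8-fold), with adjusted p of 5.1e-12 and 5.2e-11.

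Tnfsf10 encodes TRAIL, a ligand that can trigger apoptosis through death receptors and that is known as an interferon-inducible gene. It measured 4.60, 4.59 and 4.59 on the LPS-treated and -1.82, -1.21, -1.63 and -1.83 on the untreated knockout arrays. In wild type cells it measured 5.38, 4.67, 5.14 and 4.87 with LPS and -0.30, 0.15, -0.14 and 0.70 untreated. Again the 4 groups did not overlap. With 6.21 ± 0.23 in knockout cells (74.1-fold, adjusted p = 4.1e-11) and 4.91 ± 0.21 in wild type cells (30.1-fold, adjusted p = 1.5e-10), it had the largest LPS response of the 9 genes in both genotypes.

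Of the remaining 3 ligands, Tnfsf12 fell with LPS by 1 of its probes, and Ltb and Tnfsf13b were not called. Tnfsf12 encodes TWEAK, the ligand of Tnfrsf12a. It measured -1.77, -2.29 and -1.67 on the LPS-treated and -0.57, -0.12, -0.74 and -0.30 on the untreated knockout arrays, and -1.59, -0.97, -1.61 and -1.79 on the LPS-treated and -0.68, -0.68, -0.84 and -0.40 on the untreated wild type arrays. The LPS arrays lay below the untreated ones in both genotypes, by -1.48 ± 0.21 in knockout cells (adjusted p = 3.9e-05) and -0.84 ± 0.20 in wild type cells (adjusted p = 0.00209). Another probe of Tnfsf12 disagreed. It gave -0.05 ± 0.13 in knockout cells (adjusted p = 0.743) and 0.17 ± 0.12 in wild type cells (adjusted p = 0.246), so the fall rests on 1 of 2 probes. It was also not called in the authors' deposited table (-1.002 in knockout cells, adjusted p = 0.0595, and -0.61 in wild type cells, adjusted p = 0.202).

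Tnfsf13b encodes BAFF, a survival factor for B cells. It measured -2.15, -2.30 and -2.34 on the LPS-treated and -2.37, -1.99, -2.56 and -2.36 on the untreated knockout arrays. Wild type cells measured -1.44, -1.32, -1.54 and -1.55 with LPS and -1.02, -1.50, -1.57 and -1.23 untreated. The arrays with and without LPS overlapped within each genotype, and the LPS response was 0.05 (95% interval -0.28 to 0.38) in knockout cells and -0.13 (-0.43 to 0.17) in wild type cells, neither called. Ltb, which encodes the membrane-bound partner of lymphotoxin alpha, ran from -2.27 to -1.62 with LPS and from -2.63 to -2.12 untreated in knockout cells, and from -2.96 to -2.16 with LPS and from -2.41 to -1.56 untreated in wild type cells. All 4 groups of Ltb overlapped with their neighbours, and its LPS response of 0.40 ± 0.24 in knockout cells (adjusted p = 0.165) and -0.32 ± 0.22 in wild type cells (adjusted p = 0.228) was not called.

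Of the receptors, Tnfrsf1b, the TNF receptor without a death domain, had the largest rise. It measured 7.19, 7.20 and 7.18 on the LPS-treated and 4.73, 4.87, 4.62 and 4.58 on the untreated knockout arrays. In wild type cells it measured 7.23, 7.30, 7.11 and 7.29 with LPS and 5.15, 5.23, 5.20 and 5.60 untreated. The LPS-treated groups of both genotypes overlapped, while the untreated groups did not. The response was 2.49 ± 0.12 in knockout cells (5.62-fold, adjusted p = 4.7e-10) and 1.93 ± 0.11 in wild type cells (3.82-fold, adjusted p = 2.2e-09).

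Fas encodes the death receptor for Fas ligand. It measured 6.81, 6.87 and 6.49 on the LPS-treated and 4.53, 4.49, 4.60 and 4.21 on the untreated knockout arrays, and 6.84, 6.47, 6.54 and 6.52 on the LPS-treated and 4.49, 5.05, 5.11 and 5.42 on the untreated wild type arrays. The genotypes overlapped with LPS and, through untreated wild type replicate 1, without it. LPS raised Fas by 2.26 ± 0.19 in knockout cells (4.81-fold, adjusted p = 1.5e-07) and by 1.57 ± 0.18 in wild type cells (2.98-fold, adjusted p = 2.5e-06). Tnfrsf1a, the TNF receptor with a death domain, measured 5.86, 6.08 and 5.92 on the LPS-treated and 5.22, 4.78, 4.88 and 5.12 on the untreated knockout arrays. In wild type cells it measured 6.16, 6.17, 6.10 and 6.01 with LPS and 4.53, 5.35, 5.28 and 4.68 untreated. Its response was the smallest of the rises, at 0.95 ± 0.19 in knockout cells (adjusted p = 0.000550) and 1.15 ± 0.17 in wild type cells (adjusted p = 5.1e-05), and these calls were the least secure of the rises. The knockout call was lost under quantile normalisation (0.26, adjusted p = 0.175), with normexp (0.25, adjusted p = 0.181) and in the authors' deposited table (0.50, adjusted p = 0.118). The wild type call was lost in that table (0.40, adjusted p = 0.169), as was the wild type call of Fas (0.84, adjusted p = 0.300). The wild type spots of Fas ran there from 14.7 to 15.3 untreated and from 15.6 to 16.0 with LPS. The model shares its spread over all groups, and single untreated knockout spots of Fas stood at 7.35 and 7.39. Their part in the lost call was not tested.

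**Figure D2:**
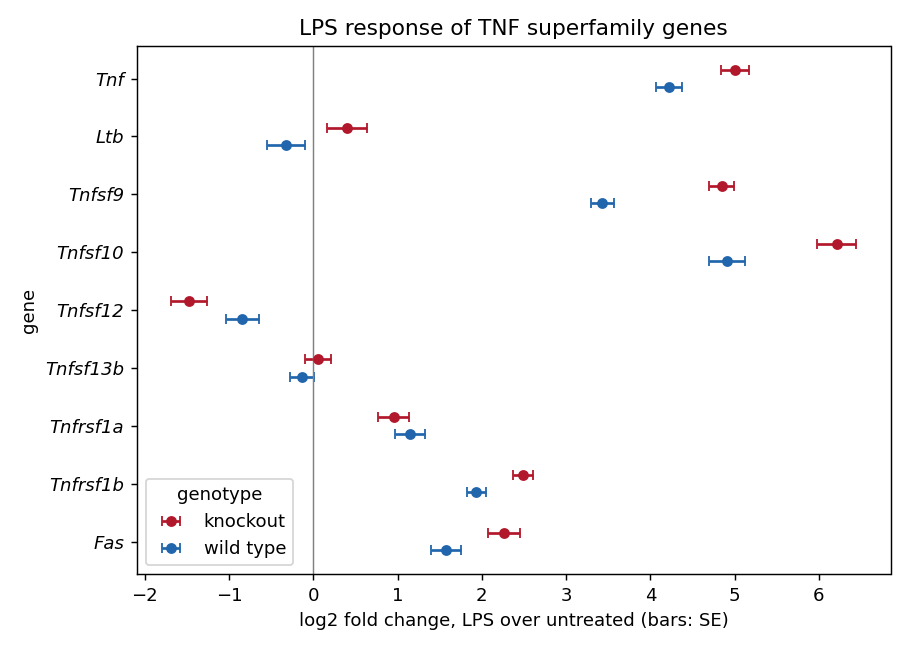
Log2 fold change of LPS-treated over untreated cells (x axis) for the 9 genes, in knockout cells (upper point of each pair) and wild type cells (lower point), with SE bars. Tnfsf10, Tnf and Tnfsf9 lie farthest right in both genotypes, and the knockout point lies to the right of the wild type point for Tnf, Tnfsf9, Tnfsf10 and Tnfrsf1b, the genes whose difference was called. It also lies to the right for Fas, Ltb and Tnfsf13b, whose difference was not called.

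The LPS response itself was larger in knockout than in wild type cells for 4 of the 9 genes and smaller for none, beside 10.1% of all genes called for a difference either way, 2.9% up and 7.15% down. The difference was 1.41 ± 0.20 for Tnfsf9 (adjusted p = 0.000488), 1.30 ± 0.32 for Tnfsf10 (adjusted p = 0.0186), 0.78 ± 0.23 for Tnf (adjusted p = 0.0480) and 0.56 ± 0.16 for Tnfrsf1b (adjusted p = 0.0440). All 4 genes were also lower in untreated knockout cells than in untreated wild type cells, a comparison that shares its arrays with this one. Tnfsf9 kept its call under all 24 alternative settings, with adjusted p from 6.5e-06 to 0.00381, and Tnfsf10 under 23 of 24, the exception being the replicate number as a block (adjusted p = 0.0550). The calls of Tnf and Tnfrsf1b lay close to the threshold and were lost under 17 and 15 of 25 settings (adjusted p up to 0.107 and 0.172). With 1 array left out, the call of Tnf held only without untreated knockout replicate 2, untreated wild type replicate 3 or LPS-treated wild type replicate 2 or 4 (0.69 to 0.92 over the 15 omissions). That of Tnfrsf1b held only without untreated knockout replicate 2, untreated wild type replicate 1 or 4 or LPS-treated wild type replicate 4 (0.45 to 0.61). Fas, at 0.69 ± 0.26 (adjusted p = 0.112), was not called, but was in 5 of 25 settings, namely quantile normalisation (0.85), normexp (0.87), array weights (0.64), without untreated wild type replicate 1 (0.87, adjusted p = 0.0150) and without the 3 arrays of largest spread (0.89). Its value over the settings ran from 0.56 to 2.62, the last in the authors' deposited table. Ltb had 0.72 (95% interval 0.02 to 1.42), Tnfsf12 -0.63 (-1.26 to -0.01), Tnfsf13b 0.18 (-0.27 to 0.63) and Tnfrsf1a -0.20 (-0.74 to 0.35), and none of them was called after adjustment.

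In untreated cells, 6 of the 9 genes were lower in knockout than in wild type macrophages and none higher. Over all genes 17.7% were called either way, 5.83% down and 11.9% up, and the median was 0.04, against -0.60 for the 9 genes. Tnfsf10 was lower by -1.72 ± 0.21 (0.303-fold, adjusted p = 8.0e-05), Tnf by -1.30 ± 0.16 (0.407-fold, adjusted p = 6.5e-05), Tnfsf9 by -1.02 ± 0.13 (0.492-fold, adjusted p = 0.000135) and Tnfsf13b by -0.99 ± 0.14 (0.504-fold, adjusted p = 0.000254). The falls of the receptors Tnfrsf1b, at -0.60 ± 0.11 (adjusted p = 0.00181), and Fas, at -0.56 ± 0.18 (adjusted p = 0.0411), were smaller. In the first 5 of these genes the knockout and wild type arrays did not overlap, as held for 21% of all genes. Fas, whose groups overlapped, lost its call under 12 of 26 settings, with adjusted p up to 0.114, among them the omission of any 1 of the 4 untreated knockout arrays or of untreated wild type replicate 2, 3 or 4. The call of Tnfsf13b was lost in the authors' deposited table (-0.58, adjusted p = 0.162). Ltb (-0.30 ± 0.22), Tnfsf12 (0.22 ± 0.20) and Tnfrsf1a (0.04 ± 0.17) were not called.

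With LPS, 2 of the 9 genes were called, both lower in knockout cells, beside 30.8% of all genes called either way, 13.6% up and 17.1% down. The genotypes did not overlap for Tnf, Tnfsf9, Tnfsf10 and Tnfsf13b, as held for 42% of all genes. Tnfsf13b was lower by -0.81 ± 0.15 (0.572-fold, adjusted p = 0.00142) and so was lower in knockout cells in both conditions. Tnf was lower by -0.51 ± 0.17 (0.701-fold, adjusted p = 0.0355), a call that was lost under 10 of 26 settings (adjusted p up to 0.153), including those without LPS-treated knockout replicate 2 or 3 or LPS-treated wild type replicate 2 or 4. Tnfsf9 stood higher in all 3 knockout arrays than in the 4 wild type arrays but missed the threshold, at 0.39 ± 0.15 (adjusted p = 0.0575), and passed it under 7 of 25 settings. Tnfsf10 was at -0.43 (95% interval -0.92 to 0.07), Tnfrsf1b at -0.04 (-0.30 to 0.21) and Fas at 0.13 (-0.28 to 0.54). The untreated comparison and the one with LPS share no arrays, but each sets the same slides against each other.

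**Figure D3:**
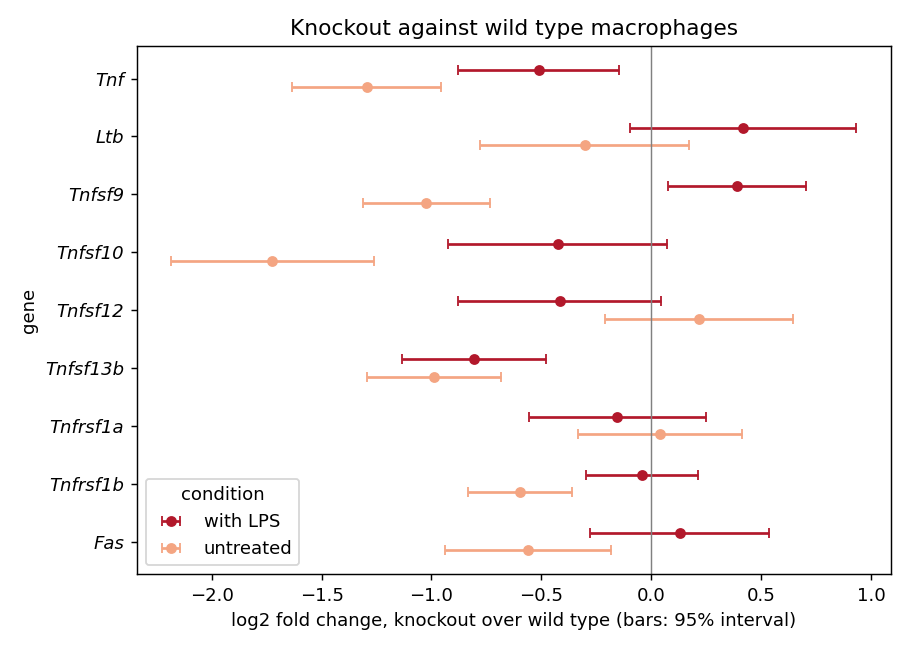
Log2 fold change of knockout over wild type cells (x axis) for the 9 genes, with LPS (upper point of each pair) and untreated (lower point), with 95% intervals. Untreated, Tnf, Tnfsf9, Tnfsf10, Tnfsf13b, Tnfrsf1b and Fas lie left of 0, and with LPS the intervals of Tnf and Tnfsf13b lie left of 0 and that of Tnfsf9 right of 0, the last without passing the adjusted threshold.

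The probes of Tnfrsf1a disagreed on the genotypes. The probe used above is the brighter of 2 and is printed on the array in 10 spots. The other probe measured 2.29, 2.09 and 2.51 on the LPS-treated and 1.75, 2.03, 1.55 and 1.97 on the untreated knockout arrays, against 3.48, 3.96, 3.49 and 3.60 on the LPS-treated and 2.31, 2.01, 1.95 and 2.24 on the untreated wild type arrays. By that probe LPS raised Tnfrsf1a less in knockout cells (0.47 ± 0.16) than in wild type cells (1.50 ± 0.15), a difference of -1.04 ± 0.22 (adjusted p = 0.00868), and with LPS the knockout was lower by -1.34 ± 0.16 (adjusted p = 3.9e-05). The rise with LPS was called by both probes in both genotypes, while the lower level in LPS-treated knockout cells was seen by only 1 of the 2. For Tnfsf12, the other probe called the untreated knockout higher, at 0.45 ± 0.12 (adjusted p = 0.0215), where the brighter one gave 0.22 ± 0.20. The other 7 genes had 1 probe each.

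The genes lie on several chromosomes, and 3 of the ligands are on chromosome 17, with Ltb directly beside Tnf (RefSeq annotation of GRCm38.p6). Of these neighbours, Tnf rose with LPS in both genotypes, while Ltb was called in neither. RefSeq promoter sequences of this build were on hand for 7 of the 9 genes, not for Tnfsf9 and Tnfsf12. The 250 bases upstream of each listed start were searched on both strands for the letters of an AP-1 site (TGACTCA), an interferon-stimulated response element (GAAA, any 2 bases and GAAA again), a cyclic AMP response element (TGACGTCA) and a kappaB site. The AP-1 letters stood in the windows of 2 of the 7 genes, Fas and Tnfsf13b, beside 4.46% of 32851 windows of the same length in the whole table. The interferon element's letters stood in those of Tnfrsf1b and Tnfsf13b (2.98% of all windows), the kappaB letters in that of Ltb (3.90%) and the cyclic AMP element's letters in none of the 7 (1.55%). Tnfsf13b has 2 listed windows, and both of its matches lie in the 1 that falls wholly inside the annotated gene. The windows of Tnf, Tnfsf10 and Tnfrsf1a held none of them, and that says only that these letters are not in these windows. A match is a string of letters and not evidence of binding.

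The following upstream sequences are those of Tnf and Tnfsf10, the genes with the largest rises among those with a sequence, and of Tnfrsf1b and Fas, receptors that rose with them and whose windows hold a match. They run 5′ to 3′ on the gene's strand up to the base before the annotated gene, and capitals mark the matched letters, the interferon element in Tnfrsf1b and the AP-1 letters in Fas, each read on the opposite strand.
Tnf, chr17:35202008-35202257, minus strand: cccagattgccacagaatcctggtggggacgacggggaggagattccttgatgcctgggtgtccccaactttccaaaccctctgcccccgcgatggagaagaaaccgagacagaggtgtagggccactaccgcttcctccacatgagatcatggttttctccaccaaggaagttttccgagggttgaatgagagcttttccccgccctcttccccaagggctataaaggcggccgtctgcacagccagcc
Tnfsf10, chr3:27316827-27317076, plus strand: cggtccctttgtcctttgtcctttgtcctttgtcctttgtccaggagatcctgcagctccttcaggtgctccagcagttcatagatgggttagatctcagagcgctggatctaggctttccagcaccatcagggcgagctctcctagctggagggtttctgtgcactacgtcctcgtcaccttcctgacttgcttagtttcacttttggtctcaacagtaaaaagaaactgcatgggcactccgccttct
Tnfrsf1b, chr4:145246871-145247120, minus strand: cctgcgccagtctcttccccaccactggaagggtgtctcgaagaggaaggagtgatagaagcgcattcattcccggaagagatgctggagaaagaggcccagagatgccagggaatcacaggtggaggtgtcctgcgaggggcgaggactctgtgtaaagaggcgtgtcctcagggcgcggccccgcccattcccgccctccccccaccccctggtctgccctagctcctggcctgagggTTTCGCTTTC
Fas, chr19:34290409-34290646, plus strand: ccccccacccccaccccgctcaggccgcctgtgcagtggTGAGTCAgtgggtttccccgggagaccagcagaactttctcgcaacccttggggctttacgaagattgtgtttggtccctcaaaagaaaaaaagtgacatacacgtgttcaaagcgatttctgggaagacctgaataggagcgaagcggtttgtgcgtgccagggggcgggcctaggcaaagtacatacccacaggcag
Counted back from the annotated gene, the match spans bases -10 to -1 in Tnfrsf1b and bases -199 to -193 in Fas, where the last 12 bases of the 250-base window lie inside the annotated gene and are not printed.

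Of the other TNF superfamily ligands, 12 were listed and 8 had a probe above background in at least 3 arrays of 1 group. With LPS, 5 of these 8 rose in knockout cells and 6 in wild type cells, and none fell. Tnfsf4, Tnfsf8, Tnfsf18 and Cd70 passed this filter only through LPS-treated arrays, so they could hardly have been called as falling. The T cell co-stimulator Tnfsf4, well above background on no untreated array, was at least 22.4-fold higher in knockout and at least 28.8-fold higher in wild type cells, and Tnfsf18 at least 3.98-fold and 4.51-fold. Tnfsf15 rose by 3.84 ± 0.29 in knockout and 4.37 ± 0.26 in wild type cells. Lta, whose product pairs with that of Ltb, rose by 1.65 ± 0.28 and 2.07 ± 0.26. Over all genes 32.5% rose in knockout cells and 34.9% in wild type cells. Because of the filter, the counts of rises are no result about these ligands. The call of Tnfsf18 in knockout cells was lost with marked spots kept (1.09, adjusted p = 0.181) and in the authors' deposited table (1.03, adjusted p = 0.163). The response differed between genotypes in 2 of the 8, beside 10.1% of all genes. It was called larger in knockout cells for Cd70, the ligand of Cd27 (adjusted p = 0.0135), and smaller for Tnfsf14 (-0.79 ± 0.21, adjusted p = 0.0272). The Tnfsf14 call was lost under quantile normalisation, in the authors' deposited table (adjusted p = 0.124), with the replicate number as a block and in 6 of the 15 omissions of 1 array. Cd70 was well above background on 0 of 4 untreated knockout arrays and 1 of 4 untreated wild type arrays, so the size of its difference depends on the floor, and with 0.5 of the floor the call was lost (adjusted p = 0.0530).

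Of 25 other receptors, 20 were measured, and 9 rose and 3 fell with LPS in knockout cells, against 8 and 1 in wild type cells, with medians of 0.51 and 0.32. Beside the 59.9% and 60.5% of all genes called, these counts are no result about the receptors. Tnfrsf25 and Cd27 passed the filter only through LPS-treated knockout arrays, so they could hardly have been called as falling in knockout cells. Tnfrsf11b, Tnfrsf13c, Tnfrsf23 and Tnfrsf26 passed it only through knockout arrays, so they could hardly have been called lower in knockout cells. Cd40, which receives help from T cells, rose by 5.06 ± 0.20 in knockout cells (measured on 2 of 3 LPS arrays) and 4.56 ± 0.16 in wild type cells. Tnfrsf9, the receptor for Tnfsf9, rose by 3.64 ± 0.99 and 4.86 ± 0.91, and another probe gave 4.24 and 4.07. Tnfrsf12a, the receptor for Tnfsf12, rose by 1.46 ± 0.20 and 1.71 ± 0.18, and the death domain receptor Tnfrsf21 fell by -2.32 ± 0.15 and -1.74 ± 0.13. The only mouse death receptor for Tnfsf10, Tnfrsf10b, rose by 1.29 ± 0.16 in knockout cells and had 0.28 ± 0.15 in wild type cells, a difference of 1.01 ± 0.22 (adjusted p = 0.00934). The call was lost with normexp (0.67, adjusted p = 0.0848) and in the authors' deposited table (0.52, adjusted p = 0.361). Tnfrsf25, the receptor for Tnfsf15, was well above background on all 3 LPS-treated knockout arrays and on no other array, at least 7.46-fold above both the untreated knockout and the LPS-treated wild type cells.

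The receptor genes with the largest genotype differences were Tnfrsf26 and Tnfrsf23, which lie on chromosome 7 and encode decoy-type receptors in the mouse. Both passed the filter only through knockout arrays, so the direction of these differences was open to 1 side only. Tnfrsf26 was well above background on all 7 knockout arrays, on 2 of 4 LPS-treated and on no untreated wild type array. With LPS it ran from 0.63 to 0.73 in knockout cells, against -4.52, the floor of detection, to -4.17 in wild type cells, and untreated it was at least 86.9-fold higher in knockout cells. Tnfrsf23, at background on all 8 wild type arrays, was at least 30.5-fold higher in knockout cells with LPS and at least 57.7-fold untreated, while another probe of Tnfrsf23 gave smaller differences of 1.12 and 1.13. In knockout cells Tnfrsf26 fell with LPS by -1.25 ± 0.10. Tnfrsf23 fell by -0.92 ± 0.08, whereas its other probe gave -0.01. Tnfrsf22, on the same chromosome and named after its values were seen, was higher in knockout cells by 0.82 ± 0.20 with LPS and 1.06 ± 0.18 untreated (adjusted p = 0.00597 and 0.00100). Whether these differences go with the deletion of Junb, with other differences of the line or with the slide was not tested.

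Among 24 genes of receptor adaptors and death machinery, all measured, 13 rose and 4 fell with LPS in knockout cells, against 16 and 4 in wild type cells, beside 59.9% and 60.5% of all genes called. The necroptosis effector Mlkl rose by 4.66 ± 0.38 and 4.91 ± 0.35, the adaptor Traf1 by 4.17 ± 0.18 and 4.03 ± 0.17 and the caspase 8 inhibitor Cflar by 3.83 ± 0.12 and 3.66 ± 0.11. Map3k14, the kinase of the non-canonical NF-kB pathway, fell by -2.93 ± 0.14 and -3.10 ± 0.13, while another probe gave -0.37 and -0.17. The response differed between genotypes for 3 of the 24, each smaller in knockout cells, a share near the 10.1% of all genes called (7.15% down). Map3k5, a stress kinase below TRAF2, had -0.15 ± 0.14 in knockout and 1.32 ± 0.13 in wild type cells, a difference of -1.47 ± 0.20 (adjusted p = 0.000347). Casp8, the initiator caspase of death receptors, rose by 0.62 ± 0.15 and 1.56 ± 0.14, a difference of -0.94 ± 0.21 (adjusted p = 0.0113). Ripk1, the kinase shared by survival and death signalling, differed by -0.60 ± 0.16 (adjusted p = 0.0300). That call was lost in 10 of the 15 omissions of 1 array, under quantile normalisation, with normexp (-0.30, adjusted p = 0.231) and with the replicate number as a block.

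Among 16 genes of ligand shedding, mRNA decay and ubiquitin editing, 10 rose and 4 fell with LPS in knockout cells, against 11 and 2 in wild type cells, beside 59.9% and 60.5% of all genes called. The ubiquitin-editing enzyme Tnfaip3, a brake on NF-kB, rose by 3.39 ± 0.19 and 3.08 ± 0.17. Zfp36, whose product binds the Tnf transcript and promotes its decay, rose by 2.56 ± 0.28 and 2.48 ± 0.26, and Rhbdf2, which brings the TNF-releasing protease Adam17 to the cell surface, by 2.53 ± 0.17 and 2.25 ± 0.15. The wild type call of Rhbdf2 was lost in the authors' deposited table (1.67, adjusted p = 0.269). The Zfp36 paralog Zfp36l1 fell by -3.55 ± 0.15 in knockout cells and rose by 0.54 ± 0.14 in wild type cells, a difference of -4.09 ± 0.20 (adjusted p = 6.2e-08). The paralog Zfp36l2 fell in both, by -2.78 ± 0.15 and -1.85 ± 0.14, and by more in knockout cells (-0.93 ± 0.20, adjusted p = 0.00923). Tnip1, a partner of Tnfaip3, had the only larger response, at 0.74 ± 0.21 (adjusted p = 0.0352), which was 0.27 by another probe. The Tnip1 call was lost in 11 of the 15 omissions of 1 array, with normexp (0.21, adjusted p = 0.411), with all probes averaged and with the replicate number as a block.

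**Figure D4:**
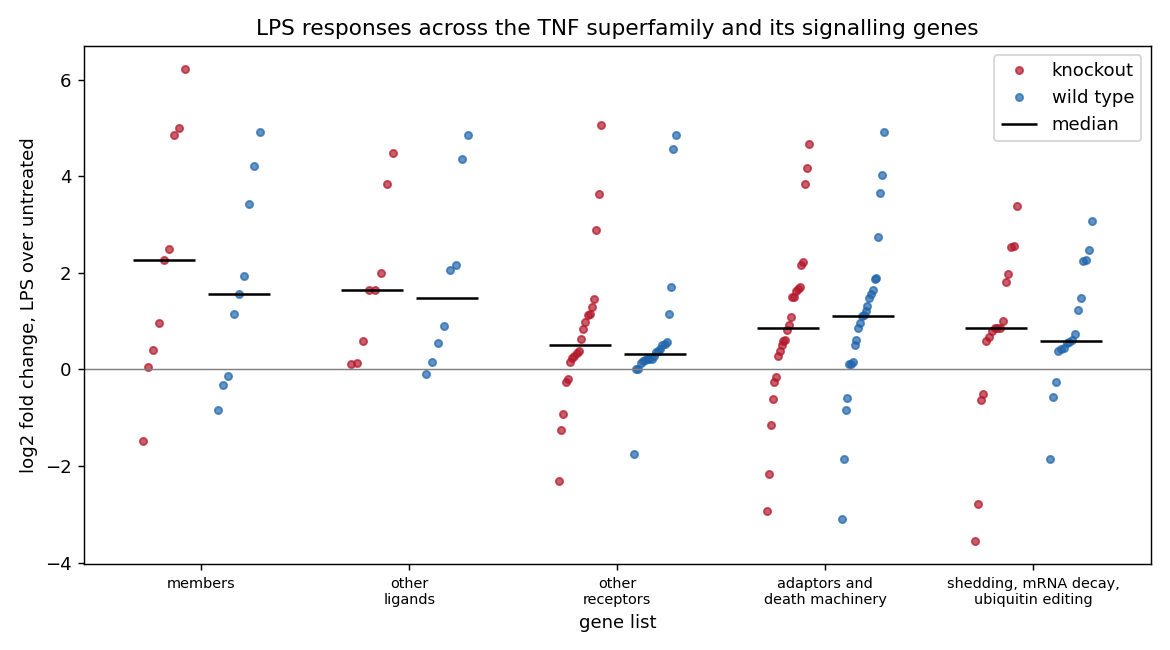
Log2 fold change of LPS-treated over untreated cells (y axis) for each measured gene of the 9 TNF superfamily genes (members) and of the 4 related lists, in knockout cells (left points) and wild type cells (right points), with the median as a black bar. The medians of the 9 genes are 2.26 in knockout and 1.57 in wild type cells, and those of the other receptors 0.51 and 0.32. Values near 0 at the floor of detection, such as Tnfrsf25 in wild type cells, carry no direction.

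Genes whose profile over the 15 arrays came closest to that of each of the 9 were found by the root mean square distance of log2 values, each gene centred on its own mean, among 13534 other genes with a value on every array. For Tnf these were Plaur (distance 0.193), Pim1 (0.226) and Gm12250 (0.268), beside an SD of Tnf itself over the arrays of 2.38. For Tnfsf9 they were Phf11d (0.247), Ifi44 (0.257) and Tfec (0.261), for Tnfsf10 Tgtp2 (0.234), Ifit2 (0.297) and Vcan (0.298), for Tnfrsf1b Zfp975 (0.110), Oas1a (0.159) and Trex1 (0.161), and for Fas Slc4a7 (0.108), Stat2 (0.146) and Col18a1 (0.161). Ifi44, Ifit2, Oas1a and Stat2 are known interferon-stimulated genes. Among the 9 genes themselves, Tnfrsf1b and Fas were the closest pair, at 0.242, and Tnf and Tnfsf9 were next, at 0.506. For the genes that moved little, the nearest profiles were Ech1 (0.101), Nrde2 and Nprl2 for Tnfsf12, Bud13 (0.133), Stom and Mars1 for Tnfsf13b, Mapre1 (0.111), Psma4 and Atp1b3 for Tnfrsf1a and, hardly closer than its own SD of 0.334, Ccdc106 (0.246), H2bc3 and Thbs3 for Ltb.

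Markers of other cells were read beside these results, since T cells and B cells also make several of these ligands. Of 8 T and NK cell markers 7 had a probe, and Cd3d, Cd3g, Cd8a and Ncr1 were not kept, while the summed level of the other 3 was 1.15 to 1.62 with LPS and 0.327 to 1.13 untreated in knockout cells, against 0.956 to 1.25 and 0.579 to 0.969 in wild type cells. Of the B cell markers, Ms4a1 and Pax5 were not kept, and the sum of the 3 that were kept varied widely within groups, from 5.94 to 33.8 with LPS and 5.52 to 69.3 untreated in knockout cells, against 3.22 to 23.0 and 4.84 to 26.5 in wild type cells. Of 7 neutrophil markers 6 had a probe, Mpo and Cxcr2 were not kept, and the sum of the other 4 was 13.6 to 16.4 with LPS and 5.11 to 5.94 untreated in knockout cells, against 43.0 to 57.9 and 5.83 to 10.1 in wild type cells. All 7 dendritic cell markers were kept, with sums of 168 to 233 with LPS and 101 to 179 untreated in knockout cells, against 136 to 322 and 151 to 215 in wild type cells. These sums were almost wholly Siglech, at 6.65 to 8.32 in log2, while no other dendritic cell marker exceeded 0.28. Cd209a was well above background on 0 of 4 untreated knockout arrays. Single markers moved with genotype as well. The neutrophil gene S100a9 was well above background on 0 of 7 knockout arrays, against 4 of 4 wild type arrays with LPS (-0.78 to 0.09) and 4 of 4 untreated (-2.33 to -0.41). S100a8 was lower in knockout cells by -1.76 ± 0.16 with LPS (adjusted p = 3.3e-06) and -0.53 ± 0.15 untreated (adjusted p = 0.0248). Of the other kept neutrophil genes, Elane was not called with LPS (-0.02) or untreated (-0.05). Prtn3 was well above background on 3 of 3 LPS-treated knockout arrays and 1 of 4 LPS-treated wild type arrays. Untreated, it was so on 2 of 4 knockout and 1 of 4 wild type arrays. It passed the filter only through LPS-treated knockout cells and could hardly have been called lower there, so its higher value (0.51, adjusted p = 0.0448) is no result. Prtn3 was not called untreated. The dendritic cell marker Itgax was lower in untreated knockout cells (-0.77, adjusted p = 0.00139), whereas Flt3, Zbtb46, Ccr7, Xcr1, Siglech and Cd209a were not called there. Macrophage markers moved both ways. In untreated knockout cells Mertk was higher (1.21, adjusted p = 0.000279) and Cd14 lower (-0.45, adjusted p = 0.0265). With LPS, Cx3cr1 was higher (0.99, adjusted p = 0.00132) and Fcgr1 lower (-0.997, adjusted p = 0.000518) in knockout cells. The B cell gene Cd79b fell with LPS in knockout (-2.01) and wild type cells (-2.98) and was higher in LPS-treated knockout cells (1.10, adjusted p = 0.000396). The other kept B cell genes did not move with it. Cd79a rose with LPS in knockout (0.85, adjusted p = 0.0156) and wild type cells (0.64, adjusted p = 0.0434) and was not called between genotypes. Cd22 was not called in any of these comparisons. The part of these markers in the results for the 9 genes was not tested.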

How the data were processed

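Gene expression was measured on 15 single-colour arrays of Cy3-labelled amplified RNA. Per the file headers, the authors' scanner files were made with Agilent Feature Extraction 10.7.3.1 and hold, for each spot, a background-subtracted processed signal, an intensity on a linear scale that is not scaled between arrays. The deposited value table holds log2 values of 50378 of the 59305 non-control spots. How it was scaled and whether background was subtracted is not given in the sources used here, and it has no Tnfsf9 or Tnfsf10, so it served as an alternative only.

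Here, spots marked as non-uniform or outliers (4827 over all arrays) were left out, signals were divided by the array's 75th percentile (482 to 1490), raised to a common floor of 0.0436 of it (-4.52 in log2) and taken to log2. Spots of 1 probe were averaged. Of 55681 probes, 26582 matched 1 symbol through RefSeq (GRCm38.p6). Genes entered the test when a probe was well above background in 3 or more arrays of any group, and each is shown by its brightest such probe. Where no array of a group measured a probe well above background, "at least N-fold" sets the bright group's mean against that group's detection limit. The precision is set by the number of arrays and, for dim probes, the signal over background (51.0% to 63.2% of spots well above).

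limma 3.58.1 in R 4.3.3 fitted 4 group means to all arrays, and p-values were adjusted by the Benjamini-Hochberg method over 14192 genes. The fit was tested on simulated data. The alternatives were quantile scaling, normexp (offset 50, on the median signal, since the mean signal was not used here) with quantile scaling, the value table, a lower floor (0.5 of it), no filter, all probes averaged, marked spots kept, array weights, only the compared groups, the replicate number as a block and each array left out. Settings without the 3 arrays of largest spread and with the other probe were chosen after seeing the data. Named genes were the 9 genes, and from each related list the 4 with the largest mean LPS response and up to 4 with the largest called genotype difference. The members and lists were chosen with earlier results of these data known. Promoter sequences are from RefSeq, and the figures were drawn with matplotlib in Python.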

Additional observations from a re-analysis of the deposited data

Results flagged for a closer look

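One array stood apart from its group. Ltb in LPS-treated wild type replicate 4 was at -2.96 on the log2 scale, while the other 3 arrays of that group lay between -2.27 and -2.16, a gap of 0.862 of the group's range. The same array had one of the largest deviations over all genes. Such a gap turns up by chance in about 1 in 20 groups, and 27 groups of 4 arrays were looked at over the 9 genes.

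The LPS response differed between knockout and wild type cells, by the test of the difference itself, for 4 of the 9 genes. The difference was 1.41 for Tnfsf9, 1.30 for Tnfsf10, 0.78 for Tnf and 0.56 for Tnfrsf1b on the log2 scale, larger in knockout cells in each case. The parts of sex and of the Lyz2 allele in it were not tested.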

How the results depend on the processing

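Among the 9 genes, the LPS calls of Tnf, Tnfsf9, Tnfsf10 and Tnfrsf1b held in both genotypes under every setting that could be run, and so did the lower untreated knockout levels of Tnf, Tnfsf9, Tnfsf10 and Tnfrsf1b. The value table lacks Tnfsf9 and Tnfsf10 and has single spots far from their duplicates. In it 2 of the other 7 genes were called for LPS in wild type and 3 in knockout cells, 0 for the difference between the responses and 1 for knockout against wild type with LPS. The difference was called for 2 of the 9 with 0.5 of the floor and with the replicate number as a block, and for 2 to 4 with 1 array left out. Knockout against wild type with LPS was called for 1 without a filter on dim probes and for 1 to 3 with 1 array left out. LPS calls were 7 in each genotype, whichever array was left out, and untreated genotype calls 5 to 6. Over all genes, the difference was called for 527 genes in the value table, 4695 with array weights, 2233 without the 3 arrays of largest spread and 931 to 1932 with 1 array left out, against 1427. Knockout against wild type with LPS was called for 2588 in the value table and 2867 to 4957 with 1 array left out, against 4365, and untreated for 1164 in the value table, 5479 with array weights and 1728 to 2874 with 1 array left out, against 2515. LPS calls over all genes ran from 7658 to 8800 in knockout and 8002 to 8753 in wild type cells with 1 array left out. Scaling set the split of all LPS calls. Rises were 54.2% of them in knockout and 57.8% in wild type cells, but 37.2% and 42.0% under quantile normalisation, where the median of all genes moved to -0.08 and -0.12 from 0.19 and 0.14, and 35.1% and 42.5% in the value table.

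Of the values that changed sign, 1 had been called, the LPS fall of Tnfsf12 in wild type cells, which its other probe gave as 0.17. The LPS response of Tnfsf13b in knockout cells was -0.16 under quantile normalisation, -0.14 with normexp, -0.12 in the value table, -0.028 without the 3 arrays and -0.028 to 0.16 with 1 array left out. It became negative without untreated knockout replicate 3 (-0.028) and LPS-treated knockout replicate 2 (-0.0037). In wild type cells it was 0.10 in the value table, 0.065 with array weights and 0.0028 without the 3 arrays, and the difference between the responses was -0.015, -0.22, -0.0039 and -0.030 under quantile normalisation, in the value table, with array weights and without the 3 arrays. Untreated knockout against wild type, Tnfrsf1a was -0.15 with marked spots kept, -0.21 in the value table, -0.13 with its probes averaged, -0.20 with array weights, -0.061 without the 3 arrays, -0.30 by its other probe, and -0.033, -0.10 and -0.052 without untreated knockout replicate 1 or untreated wild type replicate 1 or 4. Its difference between the responses was 0.10 in the value table. With LPS, Tnfrsf1b was 0.026 under quantile normalisation, 0.032 with normexp and 0.021 in the value table. Tnfsf12 was -0.071 untreated in the value table, and its other probe gave 0.22 for knockout against wild type with LPS. The cause of these changes was not tested.

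The deviations of arrays with the same replicate number had correlations of -0.54 to 0.56 over 21 pairs (median 0.11). Over 63 pairs with different numbers they ran from -0.64 to 0.66 (median -0.0038). Of the 15 arrays, 4 were closest to one of their own number. With so wide a scatter, these values cannot decide whether the numbers pair the samples. With the number as a block, called genes were 1117 for the difference, 3990 with LPS, 2201 untreated, and 8383 and 8441 for LPS in knockout and wild type cells.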

Other observations

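In the authors' deposited value table, single spots of 1 probe disagreed on some arrays. Fas has 2 spots, which stood within about the same level on most arrays. In untreated knockout replicate 3 the first was at 7.35 and the second at 14.8, and in untreated knockout replicate 2 the first was at 14.4 and the second at 7.39. In the scanner file of that last array the spots had similar processed signals of 32830 and 34327, and neither was marked, whereas in replicate 3 the first spot was marked and had 7735 against 28062.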
